A study of Homo sapiens with 33 samples.

Results

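Expression of 31 genes of the unfolded protein and amino acid stress responses was measured in 11 high-grade serous ovarian carcinoma (HGSOC) cell lines. The genes were chosen by name from a table of 29744 genes, and all 31 were present in it. They were described in 4 groups. There were 14 endoplasmic reticulum (ER) folding and ER-associated degradation (ERAD) genes, 5 transcription factors, 8 targets of the transcription factor ATF4 and 4 genes of serine and glycine synthesis. RNA-seq was done in 3 replicate libraries of each line, 33 libraries in all. The 11 lines form 4 families of shared origin, with 4 platinum-sensitive lines (OVCAR3, OVCAR4, PEA1 and PEO1) and 7 platinum-resistant lines. OVCAR3 ResA, OVCAR3 ResB, OVCAR4 ResA and OVCAR4 ResB were made from OVCAR3 and OVCAR4 in culture by repeated pulses of cisplatin until sensitivity fell. PEA2 was derived from the same patient as PEA1, and PEO4 and PEO6 from the same patient as PEO1, so resistance in these 3 lines is of clinical origin. The roles of the lines come from the study, since the sample labels give the line only. The labels name no drug treatment at the time of harvest. The study gives the PEA and PEO families one medium, while those of OVCAR3 and OVCAR4 differed from it and from each other in serum, insulin, pyruvate or buffer.

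The unfolded protein response acts when misfolded protein builds up in the ER. The sensor IRE1 splices the mRNA of XBP1, the sensor ATF6 is cut to release a transcription factor, and the sensor PERK phosphorylates eIF2, which slows translation in general while raising translation of ATF4. XBP1 and ATF6 mainly drive chaperone and ERAD genes. ATF4 drives amino acid transport and synthesis, and it is also reached from amino acid shortage through the kinase GCN2, so ATF4 targets can move without the chaperones. ATF4 activity is set largely by translation, and XBP1 activity by splicing, which gene-level RNA values do not show.

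The libraries held between 18058985 and 43394009 estimated counts, and every member had at least 54 counts in every library. Levels are given as normalised TPM, which is the TPM value (transcript abundance scaled to transcript length and library total) divided by a median-of-ratios factor for each library. The factor was used because mitochondrial rRNA took between 1.12% and 14.8% of the counts of a library. Replicate 1 stood apart in the OVCAR4 family. The mitochondrial rRNA share was 5.18%, 14.8% and 12.0% in replicates 1, 2 and 3 of OVCAR4, 9.23%, 2.02% and 2.09% in OVCAR4 ResA, and 13.1%, 2.47% and 2.39% in OVCAR4 ResB. The 3 libraries of OVCAR3 ResB held 5.97%, 8.88% and 1.12%. Counts of calls in these lines are therefore also given without each replicate. Of 6 carcinoma epithelium markers, PAX8, KRT8 and KRT18 were present in every line, while EPCAM was low in PEA1 (line mean 13.3 normalised TPM, against a median of 626 over lines). WT1 had a line mean of at least 68.2 in OVCAR3 and the PEO lines and at most 4.49 in the other 7, down to 0.560 in OVCAR4 ResB. MUC16 was 0.0624 in PEA1 and between 5.11 and 125 elsewhere.

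Promoter elements known from these pathways fell unevenly over the gene groups. Windows from 250 bases before to 50 bases after each annotated start were taken from RefSeq (GRCh38.p14) for 29 of the 31 genes, all but PSPH and SHMT2. They were searched on both strands for 4 elements, and a gene was counted where any of its windows held one. The ER stress response element ERSE, bound by NF-Y with ATF6 or XBP1, is CCAAT and CCACG with 9 bases between them. It was found in 5 of 14 ER folding genes (HSPA5, HSP90B1, CALR, PDIA6 and CRELD2) and in XBP1, against 0.0916% of 27305 genes with a window. The related element ERSE-II is ATTGG and CCACG with 1 base between them. It was found in 3 of 14 ER folding genes (HERPUD1, SDF2L1 and HYOU1), against 0.0696% of genes. The unfolded protein response element TGACGTGG was found in HYOU1 alone among the 31 genes, where it overlapped an ERSE-II match, against 0.927% of genes. The ATF4-CEBP composite element TGATGNAA was found in 3 of 8 ATF4 targets (ASNS, CHAC1 and SLC3A2), in HERPUD1 and in ATF3, against 4.46% of genes. No ERSE or ERSE-II match was found in the windows of the 8 ATF4 targets. A match describes letters in the window and not a bound site. The stretches below are shown because they carry the elements of chaperone and ERAD genes, of XBP1 and of ATF4 targets, with 15 bases on either side of the outermost match, 5′ to 3′ on the strand of the gene. Capitals mark the fixed letters of the element, and positions are GRCh38.p14.
HSPA5, ERSE, chr9:125241376-125241424, minus strand: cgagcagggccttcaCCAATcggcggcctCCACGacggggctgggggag
CALR, ERSE on the opposite strand, chr19:12938369-12938417, plus strand: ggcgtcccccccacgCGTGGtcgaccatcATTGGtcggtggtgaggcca
PDIA6, ERSE, chr2:10812838-10812886, minus strand: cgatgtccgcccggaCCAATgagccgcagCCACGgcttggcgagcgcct
CRELD2, ERSE on the opposite strand, chr22:49918539-49918587, plus strand: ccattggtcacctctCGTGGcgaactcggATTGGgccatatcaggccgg
XBP1, ERSE, chr22:28800588-28800636, minus strand: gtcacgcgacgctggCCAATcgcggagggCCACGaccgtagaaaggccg
HERPUD1, composite element on the opposite strand then ERSE-II, chr16:56931951-56932050, plus strand: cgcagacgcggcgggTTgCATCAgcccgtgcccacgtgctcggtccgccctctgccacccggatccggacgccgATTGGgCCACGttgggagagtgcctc
ASNS, composite element, chr7:97872454-97872491, minus strand: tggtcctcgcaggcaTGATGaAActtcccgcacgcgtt
CHAC1, composite element on the opposite strand, chr15:40953247-40953284, plus strand: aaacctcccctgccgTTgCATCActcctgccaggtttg

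Levels of the 4 groups were compared between lines with a mean over genes of log2(normalised TPM + 1), centred for each gene on the mean of the 11 lines. ATF4 targets ranged most widely, from -0.83 ± 0.11 (SD, n = 3) in PEA1 to 1.21 ± 0.24 in PEA2. OVCAR4 was next highest at 0.93 ± 0.42, and its 3 libraries overlapped those of OVCAR4 ResB at 0.31 ± 0.34. The serine pathway was highest in OVCAR4 at 0.81 ± 0.12 and lowest in OVCAR4 ResA at -0.58 ± 0.07, PEO6 at -0.57 ± 0.17 and PEO4 at -0.53 ± 0.06, which lay within their spread of each other. ER folding genes ranged less, from -0.67 ± 0.25 in PEO6 to 0.62 ± 0.07 in PEA2. The lowest PEA2 library was above the highest PEA1 library in all 4 groups. In OVCAR4 ResA the ATF4 targets and the serine pathway were both below OVCAR4 in every library, while the ER folding level, 0.46 ± 0.20, was close to that of OVCAR4 at 0.45 ± 0.04. Over the 11 line means, Pearson r was 0.67 between ER folding genes and ATF4 targets, 0.38 between ER folding genes and the serine pathway, and 0.77 between ATF4 targets and the serine pathway. Lines of one family share their origin, so these are descriptions over 11 related points.

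**Figure D1:**
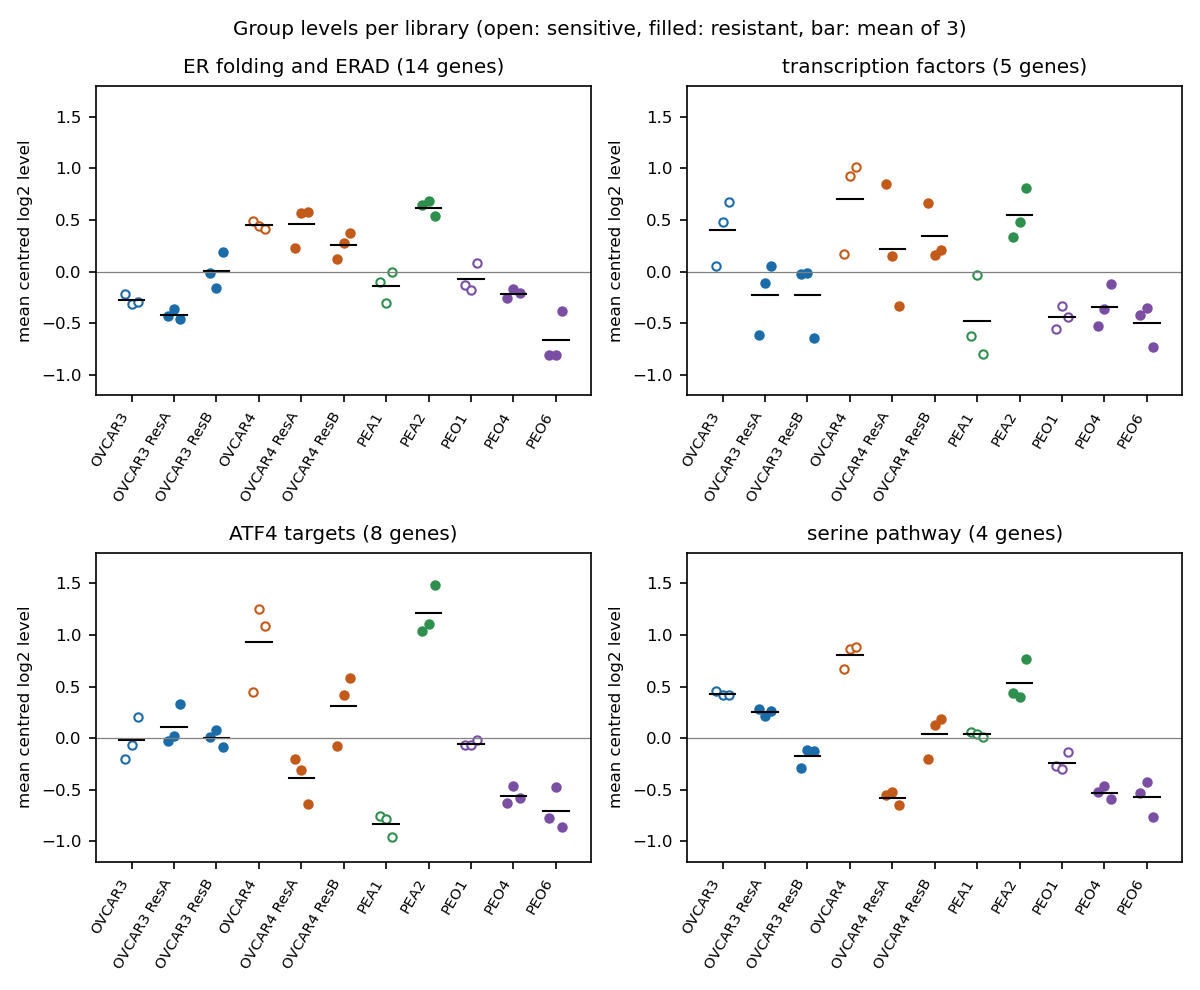
Mean centred log2 level of each gene group (y axis) in each of the 33 libraries, by line (x axis). Open points are sensitive lines, filled points resistant lines, colours families, and bars the mean of 3 libraries. PEA2 lies above PEA1 in all 4 panels, and OVCAR4 ResA falls below OVCAR4 for ATF4 targets and the serine pathway but not for ER folding genes.

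The resistant lines were then set against their sensitive counterparts, pair by pair, to ask which of these genes differ with resistance. The test was DESeq2 with the replicate number as a block, fitted on all genes, and a gene was called at a Benjamini-Hochberg adjusted p under 0.05. No single direction was shared. Of the 31 genes, 22 were called higher in some pairs and lower in others, 3 only higher, 4 only lower and 2 (DNAJC3 and HYOU1) in no pair. This count was not made for all genes, so it is not read as a trait of the 31. Between 33.3% and 47% of all genes were called in OVCAR3 ResA, PEA2, PEO4 and PEO6. PEA2 against PEA1 went one way, with 20 of 31 genes higher, where 23.3% of all genes tested were higher, and 0 lower (23.8% of all genes). The median log2 fold change of the 31 genes was 0.98, beside -0.02 for all genes. OVCAR4 ResA went the other way, with 12 genes lower (5.22% of all genes) and 0 higher (6.68%). OVCAR4 ResB had 7 lower (8.77%) and 0 higher (9.09%). In OVCAR3 ResA, 8 genes were higher (22% of all genes) and 14 lower (22.9%). In OVCAR3 ResB, 2 were higher (4.1%) and 4 lower (3.57%). In PEO4, 2 were higher (16.6%) and 6 lower (16.7%), a share of the 31 genes near or below that of all genes. In PEO6, 1 was higher (21.2%) and 13 were lower (20.3%).

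The number of calls rested on replicates 2 and 3 in the OVCAR4 family. Without replicate 1, 4 genes were higher and 18 lower in OVCAR4 ResA, and 3 higher and 20 lower in OVCAR4 ResB. Without replicate 2 or 3, 3 genes were called in OVCAR4 ResA and 1 or 0 in OVCAR4 ResB, where 5 and 6 had an unadjusted DESeq2 p under 0.05. The quasi-likelihood test of edgeR called 3 genes lower in OVCAR4 ResA, 2 lower in OVCAR4 ResB and 1 higher in OVCAR3 ResB. In OVCAR3 ResB, 2 genes were called without replicate 1 and 0 without replicate 2, where 4 had an unadjusted DESeq2 p under 0.05. Without replicate 3, the library of low mitochondrial rRNA share, 7 were called, with ASNS, PSAT1, SHMT2 and XBP1 lower and SLC7A5, DDIT4 and PPP1R15A higher. Of these, PPP1R15A was not called with all libraries. With each replicate left out in turn, the calls that held each time were 15 of 22 in OVCAR3 ResA, 0 of 6 in OVCAR3 ResB, 3 of 12 in OVCAR4 ResA (ASNS, TRIB3 and PHGDH), 0 of 7 in OVCAR4 ResB, 15 of 20 in PEA2, 5 of 8 in PEO4 and 6 of 14 in PEO6. The sign of every called gene was the same with each replicate left out. Nothing in the labels says that replicates were separate cultures, so p-values measure the spread between libraries.

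**Figure D2:**
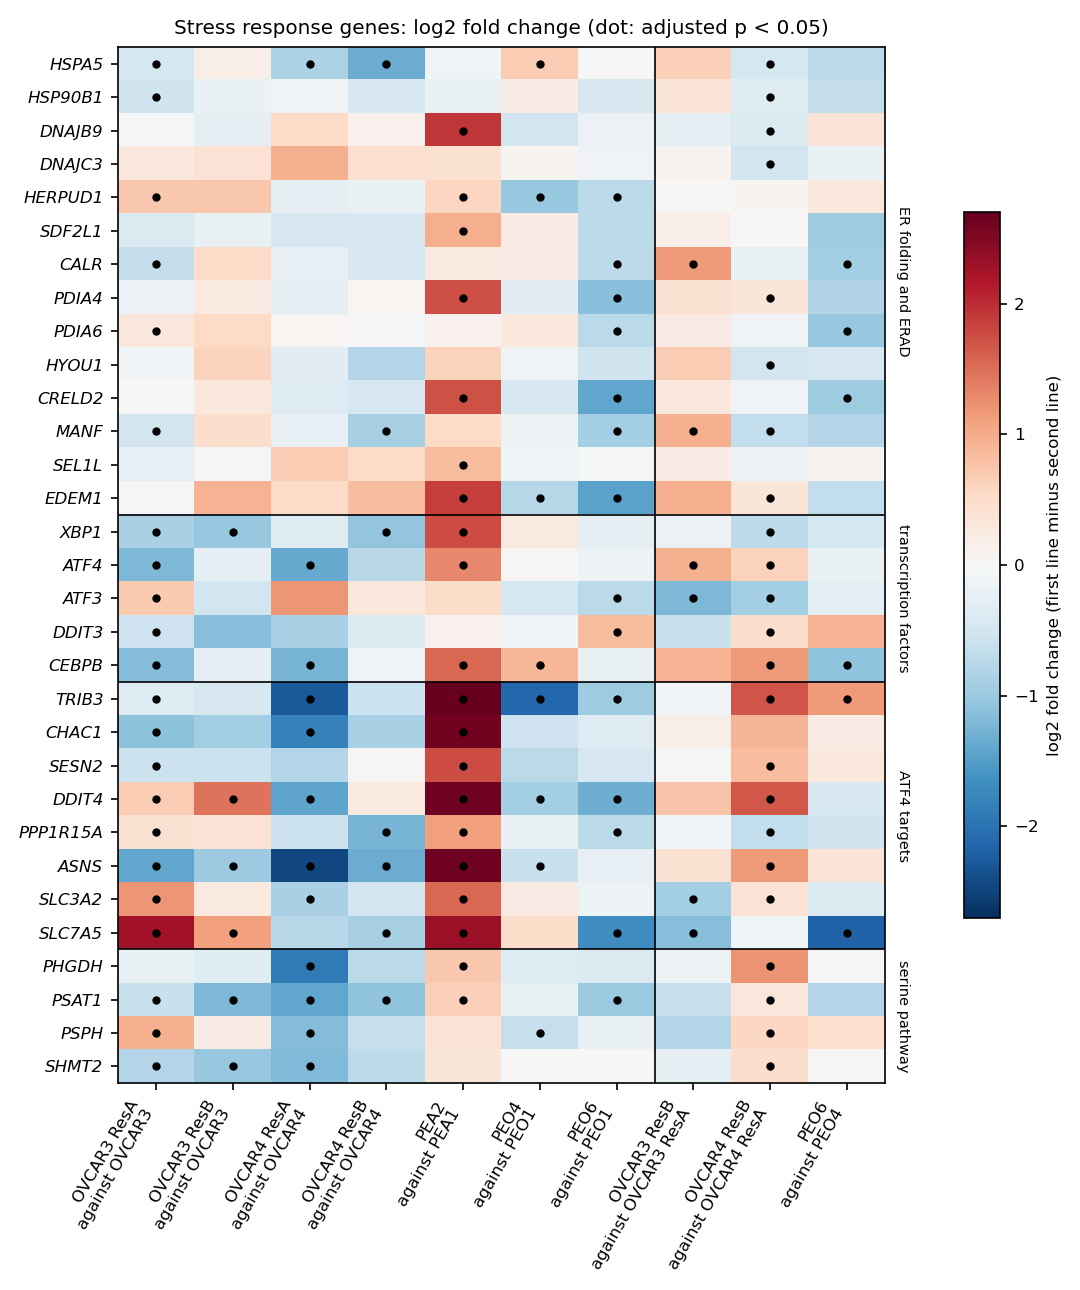
Log2 fold change (colour) of the 31 genes (rows, in 4 groups) in the 7 resistant against sensitive comparisons and, right of the vertical line, in the 3 comparisons of resistant lines. Black dots mark an adjusted p under 0.05 in DESeq2. The PEA2 column is red for all 8 ATF4 targets, while in OVCAR4 ResA these are blue.

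Among the ATF4 targets, ASNS and DDIT4 were called most often, in 6 of 7 pairs each. ASNS encodes asparagine synthetase, which makes asparagine from aspartate and is a classical reporter of amino acid shortage. It lies at chr7:97851677-97928441 (GRCh38.p14). In OVCAR4 the 3 libraries held 667, 788 and 1059 normalised TPM, in OVCAR4 ResA 160.0, 149 and 123, and in OVCAR4 ResB 236, 368 and 351. Neither resistant line overlapped OVCAR4, and ASNS fell in both, with log2 fold changes of -2.46 ± 0.31 (SE), adjusted p = 9.2e-13 in ResA and -1.33 ± 0.32 (SE), adjusted p = 0.00052 in ResB. ASNS was also lower in OVCAR3 ResA, at 92.6, 72.5 and 111 against 233, 286 and 243 in OVCAR3, a log2 fold change of -1.40 ± 0.14 (SE), adjusted p = 2.3e-21. OVCAR3 ResB held 109.7, 139.8 and 119, with a log2 fold change of -0.99 ± 0.31 (SE), adjusted p = 0.025. In this family, too, no resistant library reached the level of a sensitive one. PEO4 held 85.0, 92.9 and 85.1 against 125, 152 and 122 in PEO1, with a log2 fold change of -0.60 ± 0.16 (SE), adjusted p = 0.0010. ASNS was thus called lower in 5 of 7 pairs, which share their sensitive line within a family. The DESeq2 adjusted p rose to 0.40 and 0.58 without replicate 1 or 2 in OVCAR3 ResB, to 0.20 without replicate 3 in OVCAR4 ResB, and to 0.092 and 0.061 without replicate 1 or 2 in PEO4. PEO6, at 170.3, 138 and 73.7, overlapped PEO1 and was not called (-0.22 ± 0.24 (SE), adjusted p = 0.49). The direction was opposite in PEA2, with 219, 215 and 451 against 53.1, 54.0 and 34.5 in PEA1, a log2 fold change of 2.63 ± 0.31 (SE), adjusted p = 4.2e-16. PEA1 had the lowest line mean of ASNS, 47.2, and OVCAR4 the highest, 838, a ratio of 17.7.

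TRIB3, a pseudokinase induced by ATF4 that restrains it in return, had the widest range of all 31 genes, from a mean of 6.29 ± 0.654 (SD, n = 3) in PEO4 to 178 ± 85.4 in PEA2. PEA2 held 136, 122 and 277 against 29.2, 23.4 and 26.7 in PEA1, a log2 fold change of 2.69 ± 0.27 (SE), adjusted p = 2.9e-22. Replicate 3 of PEA2 was the highest of all 33 libraries, and the lowest PEA2 library was above every PEA1 library. PEO4 held 6.61, 6.72 and 5.54 against 26.3, 32.0 and 24.6 in PEO1 (-2.12 ± 0.20 (SE), adjusted p = 4.4e-24), and PEO6 14.2, 15.7 and 13.5 (-0.96 ± 0.23 (SE), adjusted p = 0.00022). The libraries of the 3 PEO lines did not overlap, with PEO6 between the other two. In OVCAR4 ResA, TRIB3 was 21.4, 22.8 and 15.7 against 57.6, 122 and 122 in OVCAR4, with a log2 fold change of -2.27 ± 0.37 (SE), adjusted p = 7.4e-08. OVCAR4 ResB, at 40.4, 74.6 and 83.3, overlapped OVCAR4 and was not called (-0.57 ± 0.29 (SE), adjusted p = 0.17). TRIB3 also fell in OVCAR3 ResA, by 0.35 on the log2 scale, a call that was lost without any one of the replicates (DESeq2 adjusted p between 0.057 and 0.53). CHAC1, which degrades glutathione, rose in PEA2 (log2 fold change 2.62) and fell in OVCAR3 ResA (-1.11) and OVCAR4 ResA (-1.82). It had the fewest counts of the 31 genes, down to 54 in a library. SESN2, a leucine sensor that restrains mTORC1, rose in PEA2 (1.75) and fell in OVCAR3 ResA (-0.59), where the call was lost without any one of the replicates (DESeq2 adjusted p between 0.096 and 0.31). The CHAC1 call in OVCAR4 ResA was lost without replicate 2 or 3 (DESeq2 adjusted p = 0.46 and 0.76).

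**Figure D3:**
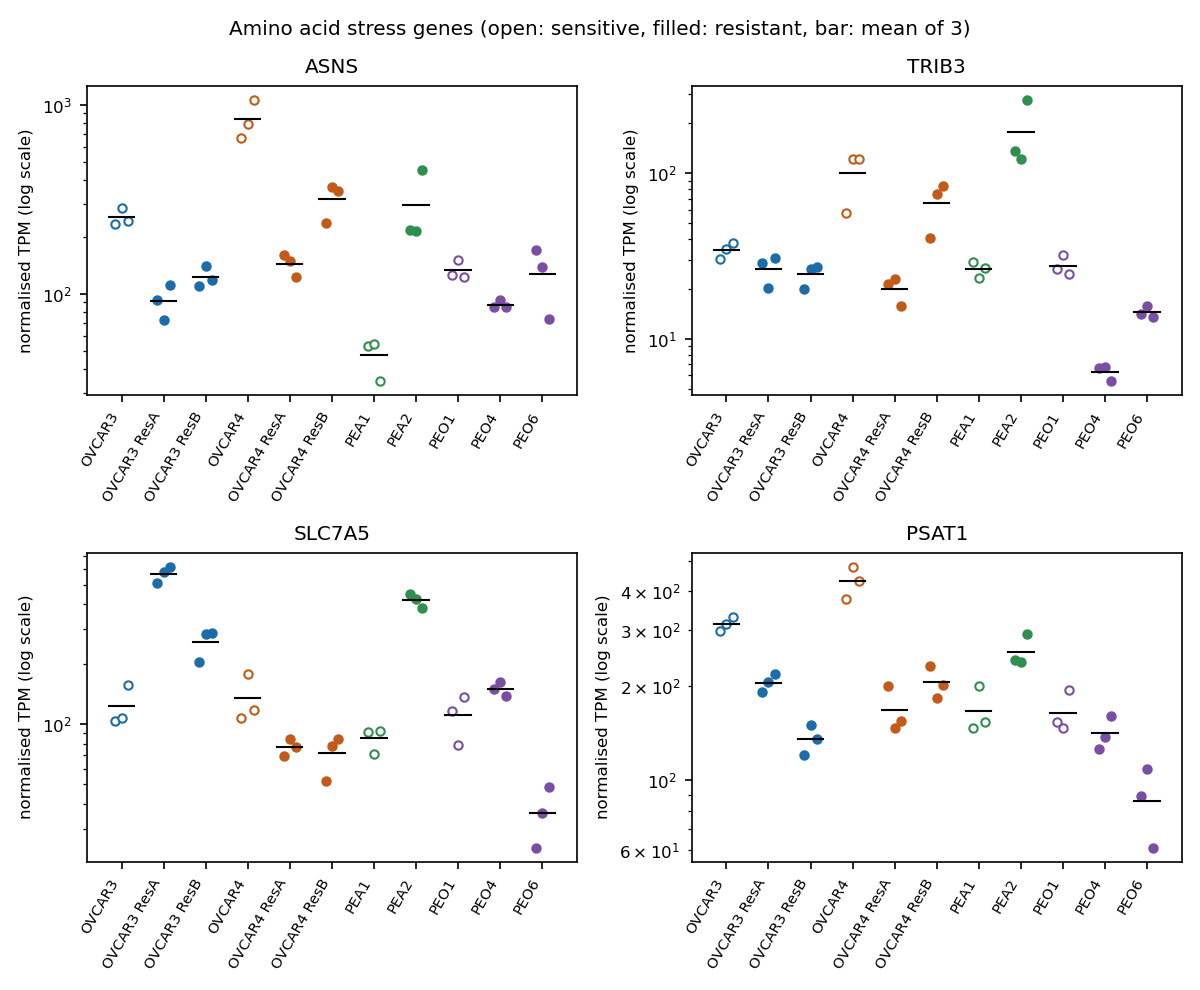
Normalised TPM on a log axis (y) of ASNS, TRIB3, SLC7A5 and PSAT1 in the 33 libraries by line (x). Open points are sensitive lines, filled points resistant lines, and bars the mean of 3 libraries. ASNS and PSAT1 lie below the sensitive line in OVCAR3 and OVCAR4 derivatives, while SLC7A5 lies above it in both OVCAR3 derivatives and in PEA2.

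The amino acid exchanger went against ASNS in OVCAR3 ResA and with it in PEA2. SLC7A5 (LAT1), the light chain that imports large neutral amino acids, and SLC3A2 (CD98), the heavy chain that carries it to the membrane, form one transporter. In OVCAR3 ResA the SLC7A5 libraries held 509.7, 582 and 619.7 normalised TPM against 104, 108 and 158 in OVCAR3, a log2 fold change of 2.26 ± 0.11 (SE), adjusted p = 3.4e-91. SLC3A2 rose in the same line, from 183, 207 and 185 to 443, 399 and 413 (1.19 ± 0.10 (SE), adjusted p = 1.7e-29). Both chains were thus higher in a line where ATF4 and ASNS were lower, with no overlap between groups for any of the 4 genes. OVCAR3 ResB held 206, 284 and 289 of SLC7A5, with a log2 fold change of 1.11 ± 0.31 (SE), adjusted p = 0.0073 and an adjusted DESeq2 p of 0.11 and 0.52 without replicate 1 or 2. Its SLC3A2, at 201, 237 and 219, was not called (0.27 ± 0.31 (SE), adjusted p = 0.80). PEA2 was higher for both chains, with SLC7A5 at 451, 424 and 382 against 91.5, 70.9 and 93.1 in PEA1 and a log2 fold change of 2.33 ± 0.23 (SE), adjusted p = 2.6e-23. In SLC3A2 the change was 1.55 ± 0.23 (SE), adjusted p = 9e-11. PEO6 was the opposite for the light chain, with SLC7A5 at 24.0, 35.8 and 48.4 against 117, 78.5 and 138 in PEO1 (-1.67 ± 0.26 (SE), adjusted p = 1.5e-09), while SLC3A2 was not called (-0.15 ± 0.21 (SE), adjusted p = 0.61). SLC7A5 also fell in OVCAR4 ResB (-0.90) and SLC3A2 in OVCAR4 ResA (-0.88), and both calls were lost without replicate 2 or 3 (DESeq2 adjusted p between 0.29 and 0.89). The line means of SLC7A5 spanned a ratio of 15.8, and those of SLC3A2 a ratio of 4.73.

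DDIT4 (REDD1), an inhibitor of mTORC1 that ATF4 and low oxygen both induce, was called in 6 of 7 pairs, higher in 3 and lower in 3. PEA2 held 133, 162 and 149 normalised TPM against 25.3, 32.3 and 17.2 in PEA1 (2.62 ± 0.25 (SE), adjusted p = 3.7e-24), and OVCAR3 ResB held 96.2, 71.2 and 104 against 37.6, 28.0 and 33.5 in OVCAR3 (1.46 ± 0.32 (SE), adjusted p = 0.00018). OVCAR3 ResA was the third line in which it rose (0.69). PEO1 had the highest level of all lines, 223, 191 and 216, and PEO6 held 84.9, 88.6 and 84.0 (-1.32 ± 0.21 (SE), adjusted p = 6.4e-09). DDIT4 fell in PEO4 as well (-0.91). Of 7 genes of the hypoxia response, 5 fell (beside 20.3% of all genes) and 1 rose (21.2%) in PEO6. CA9 fell there from a mean of 54.8 to 6.68 and ADM with a log2 fold change of -3.06. In PEA2, 2 hypoxia genes rose and 2 fell, in PEO4 and in OVCAR3 ResA 2 rose and 3 fell, and in OVCAR3 ResB 0 were called. The share of all genes called in either direction was 47% in PEA2, 33.3% in PEO4, 44.9% in OVCAR3 ResA and 7.67% in OVCAR3 ResB. In OVCAR4 ResA, 3 of 7 rose (6.68% of all genes) and 0 fell (5.22%) while DDIT4 fell (-1.41 ± 0.43 (SE), adjusted p = 0.013). In OVCAR4 ResB, 4 of 7 rose (9.09% of all genes) and 0 fell (8.77%), and DDIT4 was not called (0.27). The DDIT4 call in OVCAR4 ResA was lost without replicate 2 or 3 (DESeq2 adjusted p = 0.42 and 0.71), and that in OVCAR3 ResB without replicate 2 (DESeq2 adjusted p = 0.079). The part of oxygen in these levels was not tested. PPP1R15A (GADD34), which brings the phosphatase to eIF2 and restores translation, rose in OVCAR3 ResA (0.42) and PEA2 (1.10) and fell in OVCAR4 ResB (-1.25) and PEO6 (-0.73). Of these PPP1R15A calls, that in PEA2 held without each replicate, and the others were lost without replicate 2 (DESeq2 adjusted p between 0.17 and 0.50).

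The 4 serine pathway genes turn the glycolytic intermediate 3-phosphoglycerate into serine (PHGDH, PSAT1, PSPH) and serine into glycine and a one-carbon unit in mitochondria (SHMT2). All 4 fell in OVCAR4 ResA. PHGDH, the first enzyme, was 84.2, 107 and 93.2 there against 299, 382 and 373 in OVCAR4, a log2 fold change of -1.92 ± 0.28 (SE), adjusted p = 1e-09. In OVCAR4 ResB it was 151, 256 and 258 and was not called (-0.72 ± 0.30 (SE), adjusted p = 0.080). In normalised TPM no library reached the level of OVCAR4. Before division by the library factor, TPM was 142, 333 and 342 in ResB against 290, 268 and 285 in OVCAR4, which overlapped. PSAT1, the second enzyme, was called lower in 5 of 7 pairs. It was 200.0, 147 and 155 in OVCAR4 ResA and 231, 183 and 201 in OVCAR4 ResB, against 378, 479 and 431 in OVCAR4. In OVCAR3 it was 299, 315 and 331, in OVCAR3 ResA 191, 205 and 218 and in OVCAR3 ResB 120.5, 150.4 and 136. All 4 selected lines lay below their sensitive line without overlap, with log2 fold changes of -0.61, -1.21, -1.40 and -1.09 in OVCAR3 ResA, OVCAR3 ResB, OVCAR4 ResA and OVCAR4 ResB and adjusted DESeq2 p of 1.1e-09, 0.0021, 0.00015 and 0.0039. PEO6 was the fifth, with 89.0, 109 and 61.1 against 153, 147 and 193 in PEO1 (-0.99 ± 0.26 (SE), adjusted p = 0.00075), while PEA2 rose (0.65 ± 0.23 (SE), adjusted p = 0.015). In PEO4 the value was -0.19 ± 0.16 (SE), adjusted p = 0.40. PSAT1 kept its call without each replicate in OVCAR3 ResA. Its calls were lost without replicate 2 in OVCAR3 ResB, OVCAR4 ResA and OVCAR4 ResB (DESeq2 adjusted p between 0.16 and 0.32), without replicate 3 in PEO6 (0.057) and without replicate 1 in PEA2 (0.24).

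SHMT2 fell in OVCAR3 ResA (-0.78 ± 0.10 (SE), adjusted p = 3.5e-13), OVCAR3 ResB (-1.01 ± 0.32 (SE), adjusted p = 0.023) and OVCAR4 ResA (-1.19 ± 0.30 (SE), adjusted p = 0.0017). Without replicate 2 the call was lost in OVCAR3 ResB (0.57) and OVCAR4 ResA (0.14). In OVCAR3 SHMT2 was 128, 118 and 112 normalised TPM, in OVCAR3 ResA 73.7, 65.5 and 64.7 and in OVCAR3 ResB 55.5, 55.7 and 63.2. In the PEO family there was no call, with log2 fold changes of 0.01 in PEO4 and 0.01 in PEO6. PSPH, the last step to serine, went against PSAT1 and SHMT2 in OVCAR3 ResA, where PHGDH was not called (-0.20) and PSPH rose from 29.9, 26.8 and 24.4 to 59.5, 53.1 and 45.9 (0.97 ± 0.12 (SE), adjusted p = 1.3e-15). It fell in OVCAR4 ResA (-1.17) and PEO4 (-0.61), calls that were lost without replicate 2 (DESeq2 adjusted p = 0.19 and 0.12). It had the widest range of the group, from 9.46 ± 1.01 in PEO4 to 66.6 ± 3.60 in OVCAR4. PSPH has a pseudogene copy with near-identical sequence, and SHMT2 overlaps another measured gene, so reads of these 2 may be shared. The same limit holds for the ER folding gene PDIA6, which overlaps the measured gene ATP6V1C2.

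Of the 5 transcription factors, 3 were called higher (23.3% of all genes) and 0 lower (23.8%) in PEA2. In OVCAR3 ResA, 1 was called higher (22%) and 4 lower (22.9%). Values of the factors spread between libraries in the OVCAR4 family. ATF4 mRNA was 941, 1023 and 1279 in PEA2 against 414, 578 and 352 in PEA1 (1.29 ± 0.26 (SE), adjusted p = 2.6e-06) and 229, 283 and 250.4 in OVCAR3 ResA against 441, 695 and 668 in OVCAR3 (-1.21 ± 0.11 (SE), adjusted p = 1.3e-24). OVCAR4 ResA held 499, 310.3 and 254 against 637, 977 and 978 in OVCAR4, with a log2 fold change of -1.36 ± 0.38 (SE), adjusted p = 0.0064. In that family the value of ATF4 moved with the mitochondrial rRNA share, since replicate 1 was the lowest of OVCAR4 and the highest of OVCAR4 ResA and OVCAR4 ResB. Without replicate 1 the log2 fold change was -1.83 (DESeq2 adjusted p = 1.6e-22), and without replicate 3 it was -1.05 (DESeq2 adjusted p = 0.61). The part of library composition in it was not tested. CEBPB, a partner of ATF4 in the composite element, rose in PEA2 (1.54) and PEO4 (0.90) and fell in OVCAR3 ResA (-1.17) and OVCAR4 ResA (-1.25). The call in OVCAR4 ResA was lost without replicate 3 (-0.88, DESeq2 adjusted p = 0.89). In PEO4 CEBPB was 59.8, 60.6 and 89.9 against 31.6, 38.5 and 43.5 in PEO1.

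XBP1, the factor spliced by IRE1, had the widest range among the factors, from 45.8 ± 4.72 in PEO6 to 289 ± 30.3 in OVCAR4. It was 225, 199.5 and 229 in PEA2 against 71.3, 51.6 and 71.1 in PEA1 (1.77 ± 0.22 (SE), adjusted p = 6.4e-15). It fell in both OVCAR3 derivatives, with 109, 95.5 and 102 in ResA and 82.0, 79.5 and 122 in ResB against 232, 163 and 179 in OVCAR3 and log2 fold changes of -0.87 and -1.02. It also fell in OVCAR4 ResB, with 106, 156 and 169 against 265, 278 and 323 in OVCAR4 and a log2 fold change of -1.06. None of these lines overlapped its sensitive line in normalised TPM, while the calls were lost without replicate 2 in OVCAR3 ResB (DESeq2 adjusted p = 0.59) and OVCAR4 ResB (0.17). Before division by the library factor, TPM overlapped in OVCAR3 ResB (76.8, 60.4 and 154 against 228, 140 and 148). It also overlapped in OVCAR4 ResB (99.5, 203 and 224 against 257, 194 and 247). DDIT3 (CHOP), which promotes cell death under long ER stress, rose in PEO6, with 71.9, 82.6 and 41.3 against 33.6, 35.6 and 33.7 in PEO1 (0.86 ± 0.27 (SE), adjusted p = 0.0047), and fell in OVCAR3 ResA (-0.55). The call in PEO6 was lost without replicate 1 or 2 (DESeq2 adjusted p = 0.10 and 0.19) and that in OVCAR3 ResA without replicate 3 (0.081). The DDIT3 locus overlaps that of a tRNA synthetase gene, and the strand setting of the counting was not given in the sources used here. ATF3, a stress-induced repressor, rose in OVCAR3 ResA (0.70) and fell in PEO6 (-0.73), calls that were lost without replicate 2 (DESeq2 adjusted p = 0.20 and 0.49). In OVCAR4 ResA its libraries held 58.1, 20.1 and 11.4, in the order of replicates 1, 2 and 3, so the first was far above the others, and it was not called (1.18 ± 0.59 (SE), adjusted p = 0.20). Immediate early genes, which respond within minutes to stimuli such as fresh serum, rose in OVCAR3 ResA (6 of 7, beside 22% of all genes), PEA2 (5 of 7, beside 23.3%), PEO4 (6 of 7, beside 16.6%) and PEO6 (5 of 7, beside 21.2%). JUN fell in PEA2 (-1.27), and in the 3 other pairs 1 or 2 of the 7 rose and 0 fell. Their part in ATF3 and PPP1R15A was not tested.

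A smaller share of the ER folding genes than of the ATF4 targets was called in 6 of 7 pairs, and the same share in PEO6. By group, higher and lower calls were 2 and 4 of 14 ER folding genes in OVCAR3 ResA beside 4 and 4 of 8 ATF4 targets. In OVCAR4 ResA, 1 of 14 ER folding genes and 5 of 8 ATF4 targets were lower. Their median log2 fold changes were -0.22 and -1.15, and that of the serine pathway was -1.30. In PEA2, 7 of 14 and 8 of 8 were higher, with medians of 0.59 and 2.48. PEO6 had the most ER folding genes lower, 7 of 14 with a median of -0.71, beside 4 of 8 ATF4 targets with a median of -0.58. Of these ER folding calls, only CRELD2, EDEM1 and PDIA4 held with each replicate left out in turn. OVCAR3 ResB had 0 of 14 called and 3 of 8, OVCAR4 ResB 2 and 3, and PEO4 3 and 3. In either direction, the share of all genes called was 44.9% in OVCAR3 ResA, 7.67% in OVCAR3 ResB, 11.9% in OVCAR4 ResA, 17.9% in OVCAR4 ResB, 47% in PEA2, 33.3% in PEO4 and 41.4% in PEO6. The ER folding genes were called at 42.9% in OVCAR3 ResA, 50% in PEA2 and PEO6, and between 0% and 21.4% in the other 4, near or below the share of all genes in 6 of 7 pairs. The difference between groups of genes was not tested.

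HSPA5 (BiP), the main ER chaperone of the HSP70 family and the classical sign of the unfolded protein response, was not called in PEA2. Its libraries there held 350.4, 339 and 339 normalised TPM against 371, 359.6 and 390.4 in PEA1, a log2 fold change of -0.11 ± 0.21 (SE), adjusted p = 0.69. HSP90B1 (GRP94), the ER member of the HSP90 family, was also not called (-0.19 ± 0.21 (SE), adjusted p = 0.48), nor was the calcium-binding lectin chaperone CALR (0.25 ± 0.21 (SE), adjusted p = 0.34). The ER genes that rose in PEA2 were DNAJB9 (1.93), a co-chaperone of BiP, EDEM1 (1.86), which sends misfolded glycoproteins to degradation, PDIA4 (1.73), a disulfide isomerase, CRELD2 (1.72), SDF2L1 (0.98), SEL1L (0.85), the adaptor of the HRD1 ubiquitin ligase, and HERPUD1 (0.58), another ERAD component. The calls of SDF2L1, SEL1L and HERPUD1 were lost without replicate 1 (DESeq2 adjusted p between 0.13 and 0.25). PDIA4 was 883, 833 and 863 in PEA2 against 309.9, 213 and 268 in PEA1. PEA1 and PEA2 also differed in cell type markers. The summed level of the 6 carcinoma epithelium markers was between 361 and 473 normalised TPM in PEA1 and between 2244 and 2471 in PEA2. Of the 6, 4 were called higher, beside 23.3% of all genes. The summed level of 5 fibroblast markers was between 76.2 and 96.6 in PEA1 and between 0.730 and 1.12 in PEA2, with 2 of 5 lower (23.8% of all genes). Most of that sum in PEA1 was COL1A1, with a line mean of 81.6 against 0.880 in PEA2. PDGFRB was 5.91 in PEA1 and 0.0135 in PEA2. COL1A2 went the other way, at 0.0103 in PEA1 and 0.0565 in PEA2, and was not called, while COL3A1 and DCN were listed at 0 in both. The leukocyte marker PTPRC was at 0 in PEA1 and between 2.94 and 3.86 in PEA2. Of 2 endothelial markers, 1 was higher, at sums of at most 0.387. The part of these differences in the stress genes was not tested.

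HSPA5 fell in both OVCAR4 derivatives. It was 589, 527 and 599 in OVCAR4, 295, 324 and 343 in OVCAR4 ResA (-0.86 ± 0.28 (SE), adjusted p = 0.026) and 235, 207 and 247 in OVCAR4 ResB (-1.34 ± 0.28 (SE), adjusted p = 5.8e-05). No library of either derivative reached those of OVCAR4 in normalised TPM. Before division by the library factor, the TPM of OVCAR4 ResA (283, 387 and 435) overlapped that of OVCAR4 (572, 368 and 458). Without replicate 1 the log2 fold changes were -0.76 (DESeq2 adjusted p = 5.1e-05) and -1.31 (DESeq2 adjusted p = 2.7e-19), and without replicate 3 they were -0.89 (DESeq2 adjusted p = 0.71) and -1.36 (DESeq2 adjusted p = 0.12). MANF, a secreted partner of BiP, fell with it in OVCAR4 ResB (-0.89 ± 0.32 (SE), adjusted p = 0.034). DNAJC3, SEL1L and EDEM1 depended on the replicate in this family, and were called higher in both derivatives without replicate 1. EDEM1 was 7.39, 15.1 and 14.7 in OVCAR4 ResA and 8.84, 17.5 and 20.0 in OVCAR4 ResB, against 9.74, 7.31 and 7.69 in OVCAR4, so replicate 1 was the lowest in both derivatives. It was not called with all libraries (0.51 ± 0.40 (SE), adjusted p = 0.47 in ResA) and had a log2 fold change of 0.98 (DESeq2 adjusted p = 3.8e-05) without replicate 1. DNAJC3, a co-chaperone that also restrains PERK, had 1.32 in ResA without replicate 1, and SEL1L 1.15. In OVCAR3 ResA, HSPA5, HSP90B1, CALR and MANF fell, by 0.47, 0.54, 0.65 and 0.50 on the log2 scale, while HERPUD1 (0.73) and PDIA6 (0.30) rose. The MANF call was lost without replicate 1 (DESeq2 adjusted p = 0.24) and the PDIA6 call without replicate 2 (0.26). The carcinoma epithelium markers moved in that pair too, with 5 of 6 lower in OVCAR3 ResA, beside 22.9% of all genes. Their summed levels were between 1524 and 2239 there, against 4897 to 7954 in OVCAR3. Their part in these values was not tested.

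**Figure D4:**
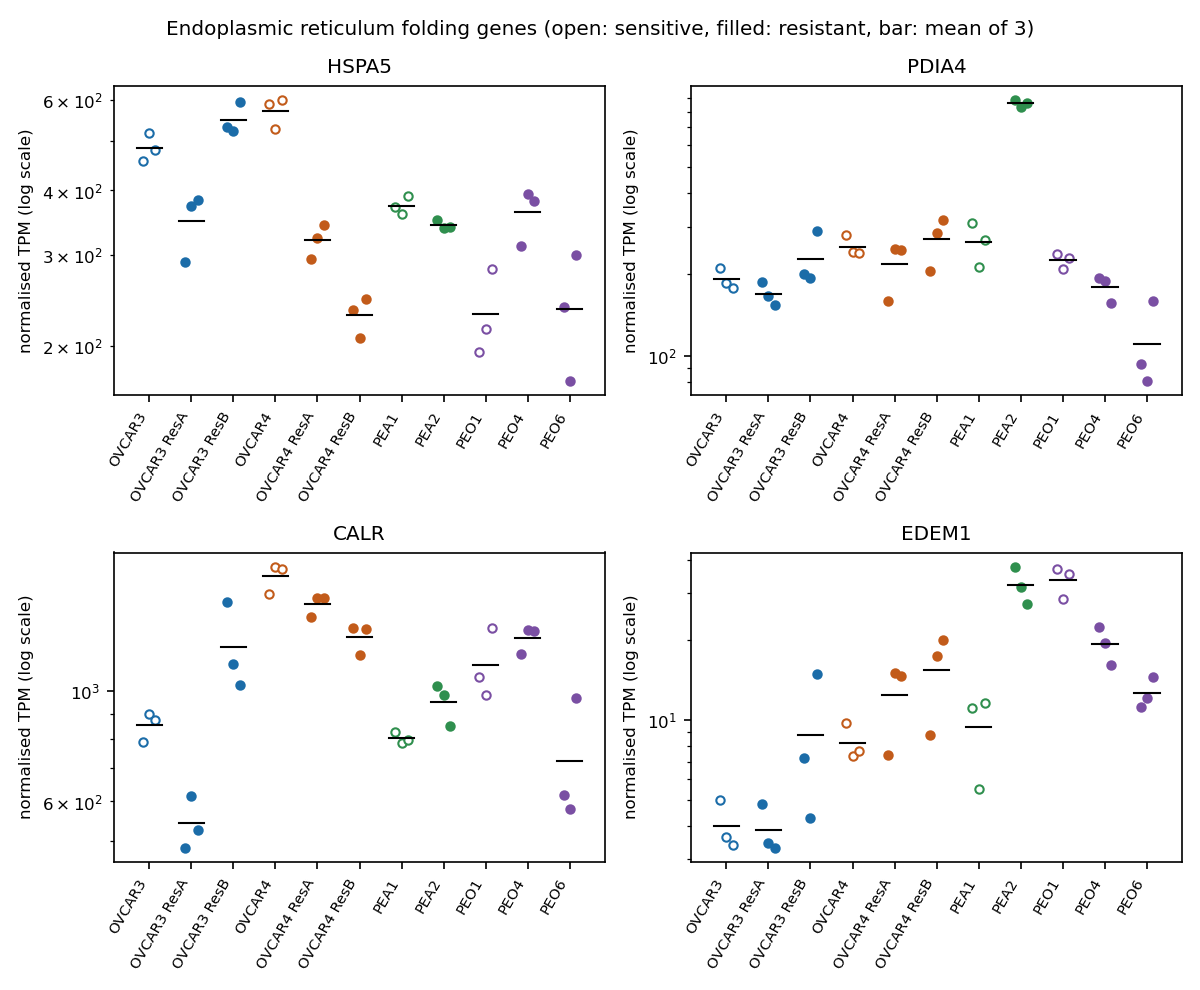
Normalised TPM on a log axis (y) of HSPA5, PDIA4, CALR and EDEM1 in the 33 libraries by line (x). Open points are sensitive lines, filled points resistant lines, and bars the mean of 3 libraries. PDIA4 and EDEM1 are higher in PEA2 than in PEA1, where HSPA5 was not called, and HSPA5 lies below OVCAR4 in both OVCAR4 derivatives.

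In the PEO family HSPA5 rose in PEO4, with 313, 394 and 381 against 195, 215 and 282 in PEO1 (0.69 ± 0.17 (SE), adjusted p = 0.00021), while HERPUD1 and EDEM1 fell. HERPUD1 was 16.8, 18.1 and 16.4 against 28.7, 36.3 and 42.0 (-1.02 ± 0.20 (SE), adjusted p = 3e-06), without overlap. The HSPA5 call was lost without replicate 1 (DESeq2 adjusted p = 0.064). The chaperone and these ERAD genes thus moved in opposite directions in the same line. EDEM1 was 37.0, 28.7 and 35.3 in PEO1, 22.4, 19.5 and 16.1 in PEO4 (-0.78 ± 0.18 (SE), adjusted p = 0.00012) and 11.2, 12.2 and 14.6 in PEO6 (-1.45 ± 0.22 (SE), adjusted p = 1.1e-09), the widest range of the ER folding genes over lines (ratio 8.71). In PEO6, CRELD2 (-1.40), PDIA4 (-1.12), MANF (-0.91), PDIA6 (-0.73), HERPUD1 (-0.72) and CALR (-0.70) fell too, and HSPA5 was not called (-0.02 ± 0.22 (SE), adjusted p = 0.96). The PEO6 calls of EDEM1, CRELD2 and PDIA4 held with each replicate left out in turn, and those of MANF, PDIA6, HERPUD1 and CALR did not. Cell type markers moved in PEO6 against PEO1 too, where 21.2% of all genes were higher and 20.3% lower. Of 6 carcinoma epithelium markers 3 were higher and 1 lower, and of 5 fibroblast markers 2 were higher and 1 lower. The fibroblast sum was between 6.18 and 9.63 normalised TPM in PEO6 and between 1.41 and 1.87 in PEO1. In PEO6 it was mostly COL3A1, with a line mean of 6.81 against 0.00399 in PEO1, while COL1A1 was 0.479 in PEO6 and 1.40 in PEO1. The part of these differences was not tested. PEO6 replicate 3 was higher than the other 2 for HSPA5, CALR, PDIA4 and PDIA6. Without replicate 2, 7 of 31 genes were called in PEO6 in place of 14, and in PEO4 the count of 8 became 5 without replicate 1 and 15 without replicate 3.

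The remaining ER folding genes were called in at most 1 pair each. HYOU1, an ER chaperone related to HSP70, was called in no pair, with log2 fold changes between -0.79 and 0.61, and DNAJC3 lay between -0.10 and 0.96. DNAJB9, SEL1L and SDF2L1 were called in PEA2 and in no other pair. SDF2L1, a partner of the ER co-chaperones, overlapped between PEA2 and PEA1 despite its call, with 29.2, 41.4 and 22.6 against 11.3, 22.7 and 14.1. Its line means spanned a ratio of 8.03 on few counts, down to 94 in a library. Those of HSP90B1 spanned a ratio of 2.13 and those of HSPA5 2.49, the narrowest of the 31 genes.

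Resistant lines of one family were compared directly, which needs no shared sensitive line. OVCAR4 ResB differed from OVCAR4 ResA in 14 genes higher (16.2% of all genes) and 9 lower (16.5%). All 4 serine pathway genes and 5 of 8 ATF4 targets were higher in ResB and 1 ATF4 target (PPP1R15A) lower, while 6 of 14 ER folding genes were lower and 2 (PDIA4 and EDEM1) higher. TRIB3 (1.70 ± 0.24 (SE), adjusted p = 1.5e-11), DDIT4 (1.68), PHGDH (1.21) and ASNS (1.14) had the largest increases of these. HSPA5 (-0.47 ± 0.10 (SE), adjusted p = 3.2e-05), MANF (-0.66), XBP1 (-0.71) and PPP1R15A (-0.67) were lower. Here the replicate numbers paired the libraries, and without the block 6 genes were higher and 2 lower. Without replicate 1, 14 were higher and 10 lower, and 9 genes in all were called without replicate 2. The calls that held without each replicate were ASNS, TRIB3, PHGDH, ATF4 and CEBPB (higher) and MANF, XBP1 and PPP1R15A (lower). Between the OVCAR3 derivatives, 3 genes were higher in ResB (7.47% of all genes) and 3 lower (6.04%). SLC7A5 (-1.15 ± 0.32 (SE), adjusted p = 0.0042), SLC3A2 (-0.92) and ATF3 (-1.22) were lower, and CALR (1.16 ± 0.33 (SE), adjusted p = 0.0062), MANF (0.97) and ATF4 (0.96) higher. In edgeR, 0 of 31 genes were called there, with 10 at an unadjusted p under 0.05, and leaving out replicate 2 left 0 in DESeq2, with 5 at an unadjusted p under 0.05. PEO6 differed from PEO4 in 1 gene higher (9.86%) and 5 lower (8.33%). SLC7A5 was lower (-2.17 ± 0.32 (SE), adjusted p = 6e-10), as were CEBPB (-1.09), PDIA6 (-1.02), CRELD2 (-0.97) and CALR (-0.92), and TRIB3 was higher (1.15 ± 0.33 (SE), adjusted p = 0.0042). Without replicate 1, 2 genes were called in this comparison, and without replicate 2, 1.

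Clinical and selected resistance were set against each other as the mean log2 fold change of PEA2, PEO4 and PEO6 minus that of the 4 selected lines, each against its own sensitive line, in one DESeq2 fit of all 33 libraries. Of the 31 genes, 12 were higher and 2 lower in the clinical mean, where 38.7% of all genes tested differed in either direction. Of all 18500 genes tested, 3507 were higher and 3648 lower. By group, 5 of 8 ATF4 targets, 3 of 4 serine pathway genes, 3 of 5 factors and 1 of 14 ER folding genes were higher. ASNS had the largest difference, 2.18 ± 0.26 (SE), adjusted p = 9.5e-16, followed by CHAC1 (1.78), CEBPB (1.41), XBP1 (1.40), ATF4 (1.29) and SHMT2 (1.03). HSPA5 was the ER folding gene that was higher (0.81 ± 0.13 (SE), adjusted p = 5.6e-09), and HERPUD1 (-0.65) and EDEM1 (-0.75) were lower. All 6 carcinoma epithelium markers were also higher in the clinical mean. With PEA2 left out, which compares PEO4 and PEO6 with the selected lines, 7 genes were higher and 7 lower. The share of all genes called without PEA2 is not given here, so this count is not read as a trait of the 31. The difference of ASNS was then 1.16 and that of SHMT2 0.93, while TRIB3 went from 0.79 to -0.63 (DESeq2 adjusted p = 0.090) and CHAC1 was no longer called (0.78, DESeq2 adjusted p = 0.17). The kind of resistance, the patient of origin and the medium cannot be told apart in this comparison.

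**Figure D5:**
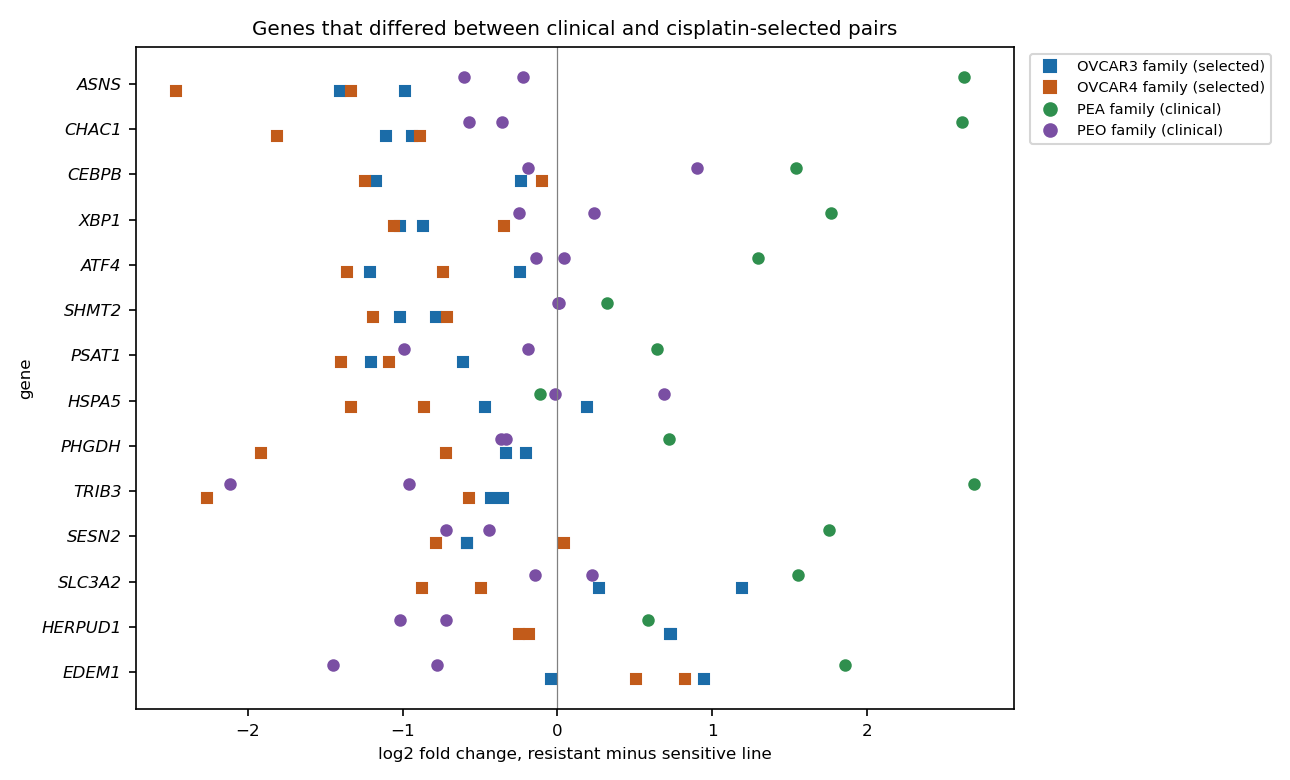
Log2 fold change of resistant against sensitive line (x axis) for the 14 genes (y axis) that differed between clinical pairs (circles) and cisplatin-selected pairs (squares), coloured by family. For ASNS and CHAC1 the PEA2 point lies far to the right, and the 2 PEO points lie below 0 but right of the 4 selected pairs.

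In a further fit each line entered once, as the sum of its 3 libraries, with family as a covariate. DESeq2 called 0 of the 31 genes between the 7 resistant and 4 sensitive lines, where 0.286% of all genes tested were called. None of the 31 had an unadjusted p under 0.05, in DESeq2 or in edgeR. PSAT1 (-0.61 ± 0.35 (SE), adjusted p = 0.95) and ASNS (-0.56 ± 0.58 (SE), adjusted p = 1.0) had the largest decreases, and SLC7A5 (0.55 ± 0.59 (SE), adjusted p = 1.0) the largest increase. Leaving out the PEA family left 0 called, with 5 genes at an unadjusted DESeq2 p under 0.05.

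The wider pathways were read from 62 further genes. In PEA2, 18 of 31 other ATF4 and amino acid genes rose and 2 fell, with a median log2 fold change of 0.77. Among these, named here after their values were seen, were the cystine importer SLC7A11 (1.42), the transsulfuration enzyme CTH (2.48) and the glutamine importer SLC1A5 (1.48). In OVCAR4 ResA, 16 of the 31 fell and 0 rose (median -0.91), with SLC7A11 at -1.51, CTH at -1.77 and SLC1A5 at -1.31. In OVCAR3 ResA, 17 fell and 4 rose, and in PEO6 14 fell and 2 rose. OVCAR3 ResB had 2 higher and 1 lower, OVCAR4 ResB 1 and 6, and PEO4 2 and 8. These shares, 9.68%, 22.6% and 32.3% in either direction, were near those of all genes, 7.67%, 17.9% and 33.3%. Of 20 other ER folding and ERAD genes, 8 rose and 4 fell in PEA2, 0 rose and 1 fell in OVCAR4 ResA, and 3 rose and 7 fell in PEO6. In OVCAR3 ResA, 4 of the 20 rose and 9 fell, so 65% were called, beside 67.7% of the 31 wider ATF4 and amino acid genes and 44.9% of all genes. In PEA2 these shares were 60% and 64.5%, beside 47%, and in PEO6 50% and 51.6%, beside 41.4%. The wider ER and ATF4 lists were thus called at nearly the same share in these 3 pairs, while in OVCAR4 ResA the shares were 5% and 51.6%, beside 11.9%. Of the 20, 0 were called in OVCAR3 ResB (beside 7.67% of all genes). In OVCAR4 ResB 1 rose and 2 fell (15%, beside 17.9%), and in PEO4 2 rose and 4 fell (30%, beside 33.3%). Among the 11 sensors and eIF2 control genes, 7 rose (23.3% of all genes) and 1 fell (23.8%) in PEA2. ERN1, which encodes IRE1 and was also picked after its value was seen, had a log2 fold change of 2.69 there. No gene of the wider lists was called in the same direction in 5 or more pairs.

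Neighbouring genes were read for members with a called change of at least 2 on the log2 scale in a pair. The 3 measured genes on either side of SLC7A5 all had positive log2 fold changes in OVCAR3 ResA, between 0.41 and 1.25, with 4 of 6 called. All 6 neighbours of TRIB3 had negative values in PEO4, between -1.18 and -0.47, each called. The members changed by 2.26 and -2.12 there. All 6 neighbours of CHAC1 were positive in PEA2, with 2 called. The share of all genes called in either direction was 44.9% in OVCAR3 ResA, 33.3% in PEO4 and 47% in PEA2. Neighbours were not tested against these shares. In the other cases (SLC7A5, ASNS, TRIB3 and DDIT4 in PEA2, and ASNS and TRIB3 in OVCAR4 ResA) the 6 neighbours were of both signs. Copy number was not analysed here.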

How the data were processed

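RNA was read from poly(A)-selected libraries of 11 lines, 3 each, pooled over several sequencing runs. Per the study's methods and the deposited file, the authors aligned reads to GRCh38 with nf-core/rnaseq and quantified genes with salmon, giving expected counts (88.4% of values whole) and TPM for 29744 genes, of which 4956 were at 0 throughout. The submitters' processing notes also name DRAGEN. The strand setting was not given in the sources used here. Groups were taken from the line named in the labels.

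Expected counts were rounded and tested in R 4.3.3 with DESeq2 1.42.0 (Wald test, median-of-ratios scaling, no prefilter, replicate number as a block, Benjamini-Hochberg adjusted p under 0.05), after the study's own design. Alternatives were edgeR 4.0.16, limma 3.58.1 on log2(TPM + 1), and others named in the closing section. Normalised TPM was the deposited TPM divided by a library factor. The script was tested on simulated data. The members and lists were chosen with earlier results of these data known. Per-library values were given for the called members with the largest changes in each comparison, those called one way in 5 or more pairs and the widest in range in each group, and for further members picked after their values were seen. The replicate numbers were checked for pairing: the correlation of same-numbered deviations passed 0.1 for all 3 numbers only in OVCAR3 ResA against OVCAR3 (0.633, 0.219 and 0.423) and OVCAR4 ResB against OVCAR4 ResA (0.632, 0.445 and 0.490). All 3 were below 0 in OVCAR4 ResA against OVCAR4 (-0.339, -0.255 and -0.0566) and OVCAR4 ResB against OVCAR4 (-0.410, -0.296 and -0.0343). The same held in PEO6 against PEO4 (-0.228, -0.117 and -0.376). The block thus did not pair like libraries there, and counts without it are given in the closing section.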

Additional observations from a re-analysis of the deposited data

Results flagged for a closer look

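These 6 results come from the test of the difference between clinically derived and cisplatin-selected resistance itself. They are the called genes with an absolute difference of at least 1 on the log2 scale. Smaller called differences, such as 0.89 for PSAT1 and 0.81 for HSPA5, are not in the list. The value is the mean log2 fold change of PEA2, PEO4 and PEO6 minus that of the 4 selected lines, from one DESeq2 fit of all 33 libraries. It was 2.18 for ASNS (adjusted p = 9.5e-16), 1.78 for CHAC1 (2.5e-05), 1.41 for CEBPB (0.00011), 1.40 for XBP1 (4.8e-18), 1.29 for ATF4 (3.3e-06) and 1.03 for SHMT2 (2.6e-12). With PEA2 left out, an alternative added after seeing the data, the values were 1.16, 0.78, 1.04, 0.82, 0.85 and 0.93, and CHAC1 was then not called. With each replicate number left out in turn, the values lay between 2.02 and 2.31 for ASNS, 1.43 and 2.19 for CHAC1, 1.18 and 1.76 for CEBPB, 1.27 and 1.5 for XBP1, 0.90 and 1.63 for ATF4 and 0.96 and 1.06 for SHMT2, each called. The p-values measure the spread between libraries of a line, while the kind of resistance is represented by 3 clinical and 4 selected lines, from 2 families each, that share their sensitive lines. In this comparison 38.7% of all genes tested were called. Outliers were not tested in groups of 3 libraries.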

How the results depend on the processing

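Counts of called genes among the 31 depended on the setting in every comparison below. The share of all genes called in these other settings is not given here. In OVCAR3 ResA (22 called) limma without a filter on log2(TPM + 1) gave 14, and leaving out one replicate 16 to 19. In OVCAR3 ResB (6) edgeR gave 1, all libraries in one fit 10, limma 1 with a pseudocount of 1, 0 with 0.1, 0 without a filter and 1 on normalised TPM, the mitochondrial rRNA share in place of the replicate number 13, and leaving out one replicate 0 to 7. In OVCAR4 ResA (12) these were 3 in edgeR, 1, 1, 0 and 2 in limma, and 3 to 22. In OVCAR4 ResB (7) they were 2 in edgeR, 15 in one fit, 0, 0, 0 and 2 in limma, 15 with the rRNA share, and 0 to 23. PEA2 (20) gave 15 to 22 without one replicate, PEO4 (8) 5 without a filter in limma and 5 to 15, and PEO6 (14) 7 without a filter, 7 with the rRNA share and 7 to 12. OVCAR3 ResB against ResA (6) gave 0 in edgeR, 12 in one fit, 0, 0, 0 and 0 in limma, 15 with the rRNA share and 0 to 9. OVCAR4 ResB against ResA (23) gave 12 in one fit, 12 without a filter and 9 to 24. PEO6 against PEO4 (6) gave 13 in one fit, 1, 1, 0 and 2 in limma, 16 with the rRNA share and 1 to 13. Clinical minus selected (14) gave 11 to 16 without one replicate. The causes of these shifts were not tested.

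Where 0 were called, the number at an unadjusted p under 0.05 was 6 and 6 (limma with 0.1 and without a filter) and 4 (without replicate 2, DESeq2) in OVCAR3 ResB, 6 in OVCAR4 ResA, 0, 0 and 1 in limma and 6 without replicate 3 in OVCAR4 ResB, 10 in edgeR, 7, 7, 7 and 8 in limma and 5 without replicate 2 in OVCAR3 ResB against ResA, and 10 in PEO6 against PEO4.

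Without the replicate block the counts were 16 in OVCAR3 ResA, 7 in OVCAR3 ResB, 15 in OVCAR4 ResA, 13 in OVCAR4 ResB, 21 in PEA2, 10 in PEO4, 15 in PEO6, 9 in OVCAR3 ResB against ResA, 8 in OVCAR4 ResB against ResA, 13 in PEO6 against PEO4 and 14 for clinical minus selected. Among 32 named combinations of gene and comparison, 12 were called under every one of 13 alternatives, no sign reversed, and 91 of 416 values fell short of the threshold. Of these, limma gave 18 without a filter, 13 with a pseudocount of 0.1, 12 with a pseudocount of 1 and 9 on normalised TPM. Leaving out replicate 1, 2 or 3 gave 10, 13 and 3, and edgeR gave 7. Each other setting gave at most 2. The Pearson r of 0.67 between ER folding genes and ATF4 targets was 0.61 on deposited TPM and 0.68 with a pseudocount of 0.1. With 3 libraries a line, the SE of clinical minus selected was 0.47 for DDIT3 and 0.46 for ATF3, the largest of the 31 genes.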
